A study of Arabidopsis thaliana with 12 samples.

Results

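The 119 DnaJ-annotated genes of Arabidopsis thaliana were followed in rosette leaves of 3-week-old plants, in the mutant atcyp18-2 and in wild type (WT, Col-0), after heat and without it. Members were the genes whose deposited description contains DnaJ, with 4 genes left out by the rule (J2, J3, ATERDJ3A and ATERDJ3B), so that 119 of the 23174 genes in the table entered. The groups were atcyp18-2 leaves after 1 h at 47 °C, atcyp18-2 leaves without heat, WT leaves after 1 h at 47 °C and WT leaves without heat, with 3 samples in each. All plants grew at 23 °C. Whether the controls stayed at that temperature through the hour of heating is not labelled, so heat and the passing of that hour cannot be told apart. The mutant is named after AtCYP18-2 (AT2G36130), a cyclophilin, and neither its allele nor the number of lines is stated in the labels.

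J-domain proteins, also called DnaJ or Hsp40 proteins, bring client proteins to Hsp70 and stimulate its ATP hydrolysis through the J-domain. Type A members carry a zinc finger and a C-terminal client-binding domain beside the J-domain, type B members the C-terminal domain without the zinc finger, and the large and varied type C group neither. In plants they act in the cytosol, nucleus, chloroplasts, mitochondria and endoplasmic reticulum, and several serve a fixed task such as chloroplast division or assembly of photosynthetic complexes. By the deposited Pfam entries, 7 members held a J-domain with a C-terminal domain, 5 a zinc finger with a J-domain, 75 a J-domain in another arrangement, and 32 no J-domain entry. The J-domain label therefore holds for 87 of the 119 members by Pfam, and for the others by their description alone.

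With 1 transcript counted per gene, libraries totalled 9075389 to 12493979 reads, of which 2572366 to 4348397 came from nuclear genes and 8437 to 18213 from the members. AtCYP18-2 itself had 12, 34 and 17 reads in heated and 13, 13 and 11 reads in unheated atcyp18-2 leaves, against 55, 48 and 65 reads in heated and 92, 99 and 62 reads in unheated WT leaves. Log2 CPM of the fitted nuclear genes, members included, were centred within each group. The first principal component of these values took up 53.4% of the spread between replicates. Centring puts scores of both signs in every group, so a split within each group was fixed in advance. Scores on this component were negative in atcyp18-2 heat replicate 2, atcyp18-2 control replicate 1, WT heat replicate 3 and WT control replicates 1 and 2. Of the 101 members fitted, 31 (30.7%) were higher in the negative-score libraries in all 4 groups, against 18.3% of all genes fitted, and 13 (12.9%) were lower in them in all 4 groups, against 19.9% of all genes. The cause of this split was not tested. The 4 leaf mesophyll markers were abundant in every library, with a summed 10690.2 to 17183.5 CPM in heated and 10909.5 to 15782.8 CPM in unheated atcyp18-2 leaves, and 10627.8 to 18263.0 CPM in heated against 10328.6 to 17536.9 CPM in unheated WT leaves. The 2 root markers found in the table summed to 10.4 to 17.0 CPM in heated and 20.9 to 32.5 CPM in unheated atcyp18-2 leaves, and to 9.62 to 21.0 CPM in heated against 22.8 to 53.7 CPM in unheated WT leaves, and 1 of these 2 had 3 or fewer reads in every group. The 3 guard cell markers summed to 5.34 to 6.13 CPM in heated and 6.18 to 9.85 CPM in unheated atcyp18-2 leaves, and to 5.10 to 6.19 CPM in heated against 6.75 to 9.33 CPM in unheated WT leaves, so that heated and unheated ranges of these and of the root markers did not overlap in either genotype. The 3 flower markers and the 1 seed marker in the table summed to at most 1.43 CPM each in any library. The part of these markers in the heat results was not tested.

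The first question was how 1 h at 47 °C moved the members. In atcyp18-2, 25 of the 101 fitted members rose after heat, 24.8% of them beside 16.9% of all genes fitted, and 8 fell, 7.92% beside 15.3% of all genes. In WT, 23 members rose, 22.8% beside 13.2% of all genes, and 6 fell, 5.94% beside 10.3% of all genes. A member was called at an adjusted p below 0.05 over all genes fitted, by edgeR's quasi-likelihood test. Heated and unheated CPM ranges did not overlap for any of these calls. By that criterion alone 29 members were higher and 13 lower in atcyp18-2 (22.5% and 22.3% of all genes), and 28 higher and 12 lower in WT (19% and 18.4% of all genes). CPM are read counts normalised to library size on the TMM scale, and log2 fold changes are given ± SE. In leaf RNA, fewer cells of a type and less RNA per cell cannot be told apart.

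The typical member moved little. The median log2 fold change of the fitted members was 0.13 in atcyp18-2 and 0.02 in WT, beside -0.01 in atcyp18-2 and -0.02 in WT for all genes. Scaling by library totals in place of TMM moved the median of all genes to -0.76 in atcyp18-2 and -0.77 in WT, and then 12 members rose and 32 fell in atcyp18-2 (6.07% and 44.5% of all genes), and 13 rose and 32 fell in WT (4.8% and 45.1% of all genes). The changes given here are therefore relative to the typical gene fitted, not to the sum of reads. Chloroplast genes took 59.9 to 70.2% of the reads of a library. With the sign of the component score as a term in the fit, 33 members rose and 17 fell in atcyp18-2 (26.2% and 25% of all genes), and 32 rose and 11 fell in WT (21.7% and 20.4% of all genes). The score was made from these same counts, so the term takes out spread it was built from. Calls gained with it, here and below, are therefore no independent support. DESeq2 called 24 of 106 members higher and 11 lower in atcyp18-2 (12.5% and 17.9% of 17781 genes) and 19 of 107 higher and 7 lower in WT (10.6% and 11.4% of 18231 genes), counting those to which it gave an adjusted p.

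Of the members that rose, 20 did so in both genotypes, which is 80% of the atcyp18-2 list and 87% of the WT list, beside 66.6% and 85.1% over all genes that rose. Of those that fell, 6 did so in both, 75% of the atcyp18-2 list and 100% of the WT list, beside 51.7% and 77.0% over all genes that fell. A rise was called in atcyp18-2 and not in WT for AT4G37480, AT5G05750, AT5G18140, AT5G37380 and AT5G53150, and in WT and not in atcyp18-2 for LQY1 (AT1G75690), AT2G24860 and P58IPK (AT5G03160). For none of these 8 members was a difference of the heat response between genotypes called when it was tested (edgeR, lowest adjusted p = 0.899, for AT5G18140). Among them, AT4G37480 stood at 0.85 ± 0.21, AT5G37380 at 1.48 ± 0.42 and AT5G53150 at 0.99 ± 0.29 in atcyp18-2, beside 0.31 ± 0.20, 0.77 ± 0.42 and 0.37 ± 0.28 in WT. The atcyp18-2 call of AT4G37480 was lost with DESeq2 (0.70, adjusted p = 0.0508) and that of AT5G53150 with no filter on low counts (0.86, adjusted p = 0.0534). Leaving out atcyp18-2 control replicate 2 or 3 or atcyp18-2 heat replicate 2 ended the call of AT5G37380 (adjusted p up to 0.11), and atcyp18-2 control replicate 2 or 3 or atcyp18-2 heat replicate 1 that of AT5G53150 (up to 0.0713). With library totals the atcyp18-2 calls of all 5 were lost. In the fit with the sign of the component score as a term, AT5G37380 (1.08, adjusted p = 0.000125) and AT5G05750 (0.48, adjusted p = 0.0499) were called higher in WT too. AT2G24860 stood at 0.13 ± 0.17 in atcyp18-2 and rose by 0.56 ± 0.17 in WT, where library totals turned its direction. That call was lost in 5 of the 12 fits that left out 1 library and in 5 of the 10 other settings, DESeq2 among them (0.45, adjusted p = 0.101). The other 65 fitted members were called in neither genotype. Over all 16636 genes, 2812 rose in atcyp18-2 and 2200 in WT, with 1873 in both. Falls numbered 2546 in atcyp18-2 and 1711 in WT, with 1317 in both. The count of 65 is thus not read as a trait of the members.

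**Figure D1:**
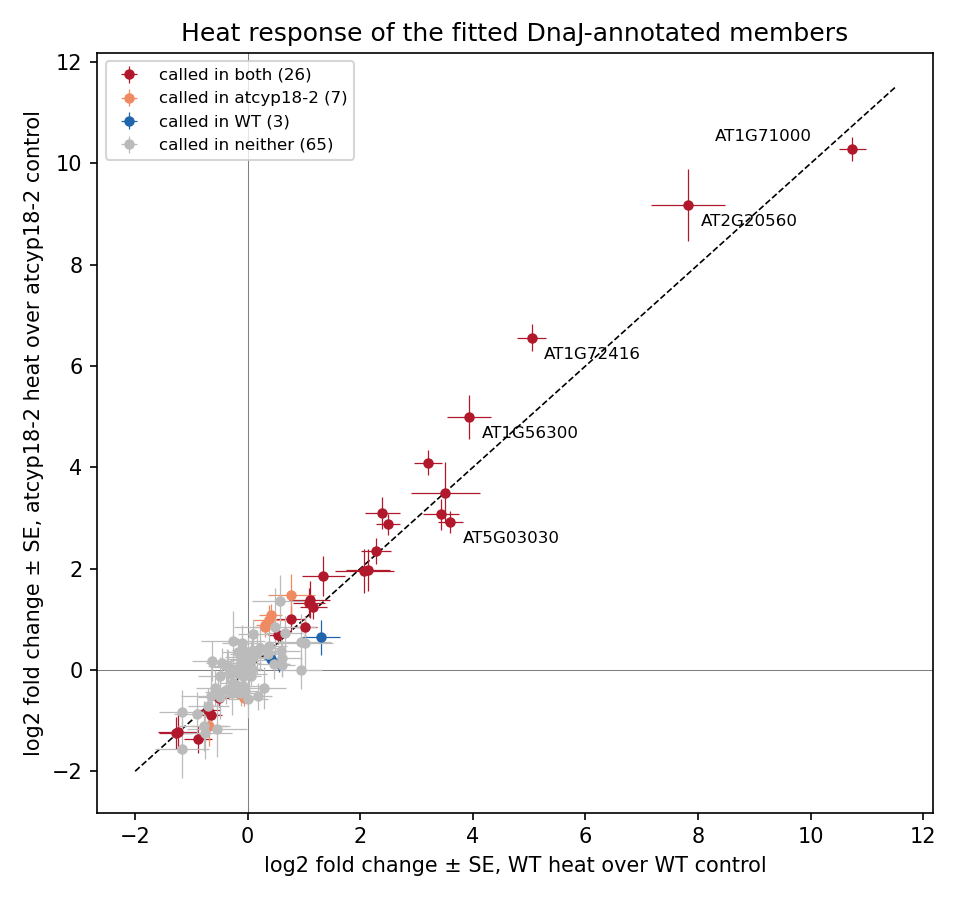
Log2 fold change ± SE after heat in atcyp18-2 (vertical axis) against that in WT (horizontal axis) for the 101 fitted members, with a dashed line where both are equal and colours for members called in both genotypes, in 1 of them or in neither. The 26 members called in both genotypes moved in the same direction in each, and AT1G71000, AT2G20560, AT1G72416 and AT1G56300 lie highest.

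AT1G71000, annotated as a DnaJ superfamily protein with a J-domain, showed the largest change. It had 112, 107 and 109 CPM in heated atcyp18-2 leaves, against 0 reads in all 3 unheated atcyp18-2 libraries. Heated WT leaves had 147, 153 and 122 CPM, against 0 reads in all 3 unheated WT libraries. The transcript was thus found in the 6 heated libraries and at 0 reads in the 6 controls. Counted against 3 reads over the control group, it was at least 1430.3-fold higher in heated atcyp18-2 leaves (2272 reads) and at least 1947-fold higher in heated WT leaves (3575 reads), bounds that cover counting error only. AT1G56300, another J-domain member, had far fewer reads, with 3.13, 2.59 and 2.67 CPM in heated atcyp18-2 leaves (55 reads) against 0 reads in the controls, at least 34.6-fold higher. In WT it had 59 reads after heat against 3 reads without heat, a ratio of 32.1 (95% exact binomial interval 10.5 to 160.3).

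The heat shock element, bound by heat shock factors, is built of inverted GAA repeats. A facing pair of repeats reads GAANNTTC or TTCNNGAA, each of which is its own reverse complement, so that both strands were searched at once. The search covered the 250 bases before the annotated gene start in RefSeq TAIR10.1, matched by locus identifier, since the counts name no build. Such a pair stood in 16.1% of the windows of 27443 protein-coding genes and in 12 of the 119 members (10.1%). It stood in 4 of the 25 members that rose in atcyp18-2 (16%) and in 4 of the 23 that rose in WT (17.4%), beside 18.4% of all genes called higher in atcyp18-2 and 18.3% of those in WT. A run of 3 alternating repeats, which contains both pairs in overlap, stood in 0.386% of all windows and in 1 member, AT1G71000. Its window is shown with those of AT1G72416 and J11 (AT4G36040), which also rose and held 1 pair, and of AT2G20560, which rose strongly and held none. Each runs 5′ to 3′ on the strand of the gene, with the pairs in capitals.
AT1G71000 (chr1:26770178-26770427, minus strand): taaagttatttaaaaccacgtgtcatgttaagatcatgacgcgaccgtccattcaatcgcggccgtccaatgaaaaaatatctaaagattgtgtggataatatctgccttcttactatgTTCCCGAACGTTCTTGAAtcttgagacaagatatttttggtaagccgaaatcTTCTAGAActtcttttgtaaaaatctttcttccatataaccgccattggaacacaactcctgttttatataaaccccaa
AT1G72416 (chr1:27260522-27260771, minus strand): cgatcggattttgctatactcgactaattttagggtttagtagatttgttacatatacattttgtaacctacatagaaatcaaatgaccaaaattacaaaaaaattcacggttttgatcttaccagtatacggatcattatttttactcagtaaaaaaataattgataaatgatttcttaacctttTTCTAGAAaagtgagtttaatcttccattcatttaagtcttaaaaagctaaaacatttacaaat
AT4G36040 (chr4:17050609-17050858, minus strand): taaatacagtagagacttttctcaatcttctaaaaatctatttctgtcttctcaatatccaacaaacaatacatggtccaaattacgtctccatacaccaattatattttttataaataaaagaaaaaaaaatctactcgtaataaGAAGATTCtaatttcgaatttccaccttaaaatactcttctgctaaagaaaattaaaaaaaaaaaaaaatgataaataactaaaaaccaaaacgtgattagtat
AT2G20560 (chr2:8850112-8850361, minus strand): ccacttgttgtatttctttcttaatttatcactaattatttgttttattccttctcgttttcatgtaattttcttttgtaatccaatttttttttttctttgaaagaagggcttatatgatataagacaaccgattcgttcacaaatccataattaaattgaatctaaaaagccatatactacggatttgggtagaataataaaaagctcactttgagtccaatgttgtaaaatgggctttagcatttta
AT1G71000 held 4 pairs, the first starting 131 bases and the last 79 bases before the gene start. The pair of AT1G72416 started 64 bases and that of J11 104 bases before it. Of the 12 members with the largest rise in WT, 4 held a pair and 8 did not. The window of AT2G20560 overlaps the gene AT2G20562. A match is a description of the sequence and no test of binding.

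**Figure D2:**
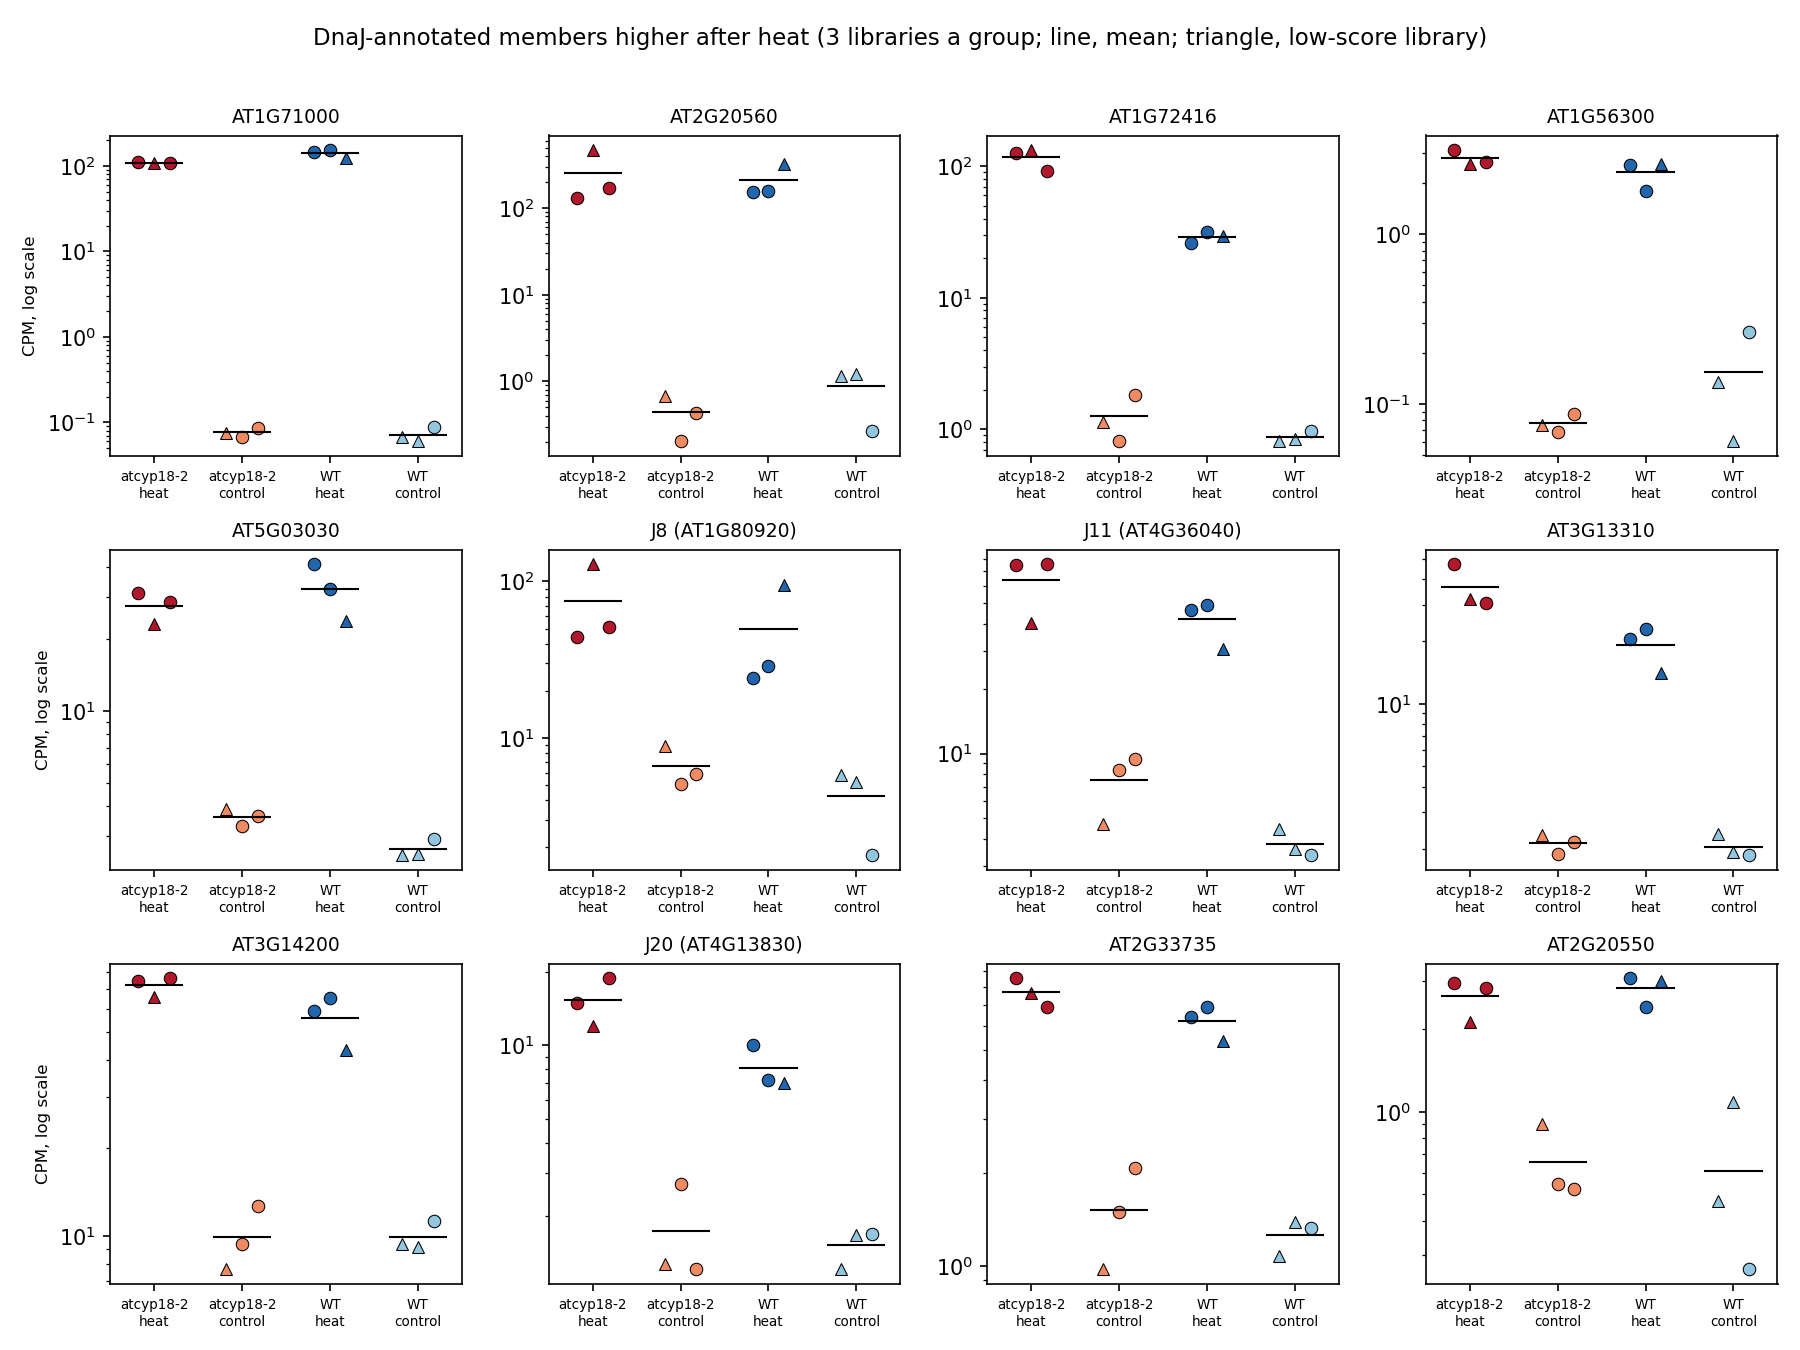
CPM on a log axis for the 12 members with the largest rise after heat in WT, with 1 point for each of the 3 libraries in a group, a line at the mean and triangles for libraries with a negative (low) component score. CPM include the added read, so a point at 0 reads lies above 0. Heated libraries lie above the unheated libraries of the same genotype in all 12 panels, and AT1G72416 lies higher in heated atcyp18-2 (92.3 to 132 CPM) than in heated WT leaves (26.1 to 31.7 CPM).

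Members with a J-domain and a C-terminal domain, the type B layout, rose in 3 of 6 fitted cases in each genotype, beside the 16.9% (atcyp18-2) and 13.2% (WT) of all genes. AT2G20560 had 132, 468 and 169 CPM in heated atcyp18-2 leaves, against 0.677, 0.204 and 0.434 CPM in unheated ones. In WT it had 154, 157 and 319.8 CPM after heat, against 1.15, 1.20 and 0.267 CPM without heat. The groups lay far apart, with a log2 fold change of 9.18 ± 0.72 in atcyp18-2 (adjusted p = 7.85e-07) and 7.83 ± 0.65 in WT (adjusted p = 1.96e-06). In each heated group the negative-score library was the highest, and between libraries of 1 sign the log2 difference was 9.43 (negative) and 8.97 (positive) in atcyp18-2 and 8.09 and 9.18 in WT. AT4G28480 rose less, by 1.86 ± 0.39 in atcyp18-2 (adjusted p = 0.00291) and 1.34 ± 0.39 in WT (adjusted p = 0.0239). Its heated libraries had 12, 31.4 and 12.7 CPM in atcyp18-2, against 3.94 to 7.22 CPM in the controls, and 12.4, 10.8 and 17.1 CPM in WT, against 3.38 to 6.32 CPM in the controls. Its call in WT was lost without WT control replicate 3 (1.11, adjusted p = 0.0686) or WT heat replicate 3 (1.13, adjusted p = 0.0783). AT5G01390 rose by 0.84 ± 0.21 in atcyp18-2 and 1.02 ± 0.21 in WT. AT3G08910, AT1G10350 and AT3G47940 passed the threshold in neither genotype, with log2 fold changes between -0.52 and 0.61. AT5G25530, the remaining type B member, had 1 read in heated atcyp18-2 leaves and 0 reads in the other 3 groups, and was not fitted.

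AT2G20550, a neighbour of AT2G20560 by identifier, is annotated as a DnaJ peptide-binding protein and holds the C-terminal domain alone. It had 2.96, 2.12 and 2.83 CPM in heated and 0.903, 0.543 and 0.521 CPM in unheated atcyp18-2 leaves, and 3.07, 2.40 and 3.01 CPM in heated against 0.473, 1.08 and 0.267 CPM in unheated WT leaves. Its log2 fold changes were 1.97 ± 0.41 (adjusted p = 0.00273) in atcyp18-2 and 2.14 ± 0.39 (adjusted p = 0.00174) in WT. How reads that match both genes were counted is not stated, so the values of the weaker one are uncertain.

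Members with a zinc finger and a J-domain, the type A layout, were called in 0 of 5 cases in each genotype. Over all genes 16.9% were called higher and 15.3% lower in atcyp18-2, and 13.2% and 10.3% in WT. At such shares 0 calls among 5 genes say little about the class. ATJ1 (AT1G28210) had 1.32, 1.53 and 0.471 CPM in heated and 0.827, 0.611 and 0.869 CPM in unheated atcyp18-2 leaves, and 0.401, 1.80 and 1.42 CPM in heated against 0.947, 0.602 and 0.267 CPM in unheated WT leaves. These groups overlapped in both genotypes. The other 4, DJA5 (AT4G39960), DJA6 (AT2G22360), DJA7 (AT1G80030) and DJA4 (AT3G17830), had log2 fold changes between -1.10 and 0.70 in atcyp18-2 and between -0.77 and 0.29 in WT. The medians over the 5 were -0.26 in atcyp18-2 and 0.10 in WT, beside 0.68 in atcyp18-2 and 0.82 in WT for the 6 fitted type B members. The difference between the classes was not tested. The rule leaves out J2 and J3, cytosolic type A proteins, which rose by 2.88 and 3.24 in atcyp18-2 and by 2.28 and 2.80 in WT. The type A medians therefore do not cover all type A genes. Other settings called 3 of the 5 members. In the fit with the sign of the component score as a term, DJA5 was lower after heat in atcyp18-2 (-1.17, adjusted p = 0.00817) and in WT (-1.02, adjusted p = 0.0134), DJA7 was lower in WT (-0.44, adjusted p = 0.00697) and DJA6 was higher in atcyp18-2 (0.69, adjusted p = 0.000118). DJA5 was also called in atcyp18-2 by DESeq2 (-1.25, adjusted p = 0.0393), and DJA6 without atcyp18-2 control replicate 1 (0.91, adjusted p = 0.047). With library totals DJA5 and DJA7 were called lower in both genotypes.

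**Figure D3:**
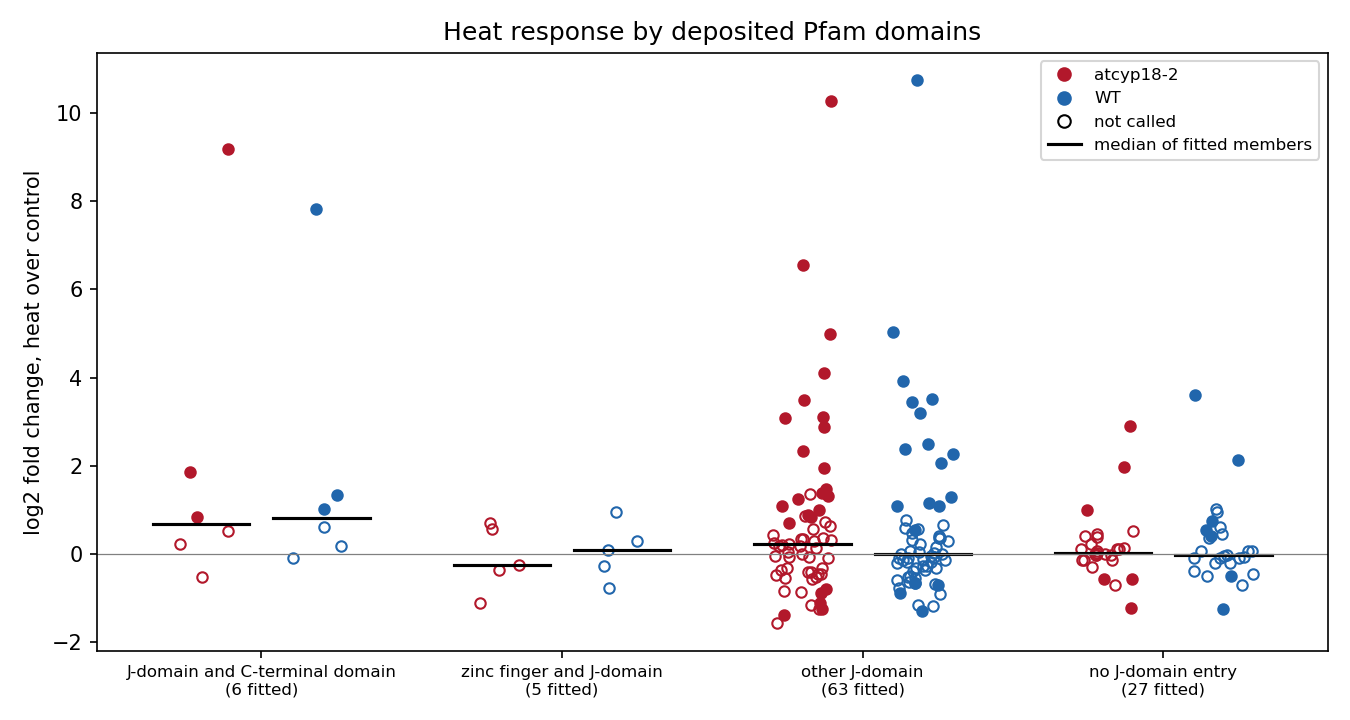
Log2 fold change after heat for the fitted members of each Pfam class, with atcyp18-2 in red and WT in blue, filled points for members called and black lines at class medians. Members were called in 3 of the 4 classes, and the 5 zinc finger members lie between -1.10 and 0.95.

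Small J-domain proteins of the chloroplast, J8, J11 and J20, rose in both genotypes. J8 (AT1G80920) had 44.4, 129 and 50.9 CPM in heated and 8.88, 5.09 and 5.91 CPM in unheated atcyp18-2 leaves, a log2 fold change of 3.50 ± 0.60 (adjusted p = 0.000753). In WT it had 24.2, 28.7 and 95.3 CPM after heat and 5.81, 5.24 and 1.78 CPM without heat, a change of 3.51 ± 0.61 (adjusted p = 0.00117). The highest heated library of J8 in each genotype was the one with the negative score. Between libraries of 1 sign its log2 difference was 3.86 (negative) and 3.12 (positive) in atcyp18-2, and 4.11 and 3.89 in WT. J11 had 74.7, 40.1 and 75.5 CPM in heated and 4.74, 8.42 and 9.38 CPM in unheated atcyp18-2 leaves, and 46.1, 48.9 and 30.4 CPM in heated against 4.46, 3.61 and 3.38 CPM in unheated WT leaves. Its changes were 3.08 ± 0.31 in atcyp18-2 (adjusted p = 8.49e-06) and 3.44 ± 0.32 in WT (adjusted p = 5.37e-06), and here the negative-score library was the lowest of each heated group. J20 (AT4G13830) directs inactive deoxyxylulose 5-phosphate synthase, an enzyme of plastid isoprenoid synthesis, to Hsp70. It had 15.0, 12 and 18.8 CPM in heated and 1.28, 2.72 and 1.22 CPM in unheated atcyp18-2 leaves, and 10, 7.21 and 7.03 CPM in heated against 1.22, 1.69 and 1.69 CPM in unheated WT leaves. The groups lay apart, with changes of 3.10 ± 0.31 in atcyp18-2 (adjusted p = 8.49e-06) and 2.39 ± 0.32 in WT (adjusted p = 0.000126).

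Further members with a J-domain and no role given here rose. DJC66 (AT3G13310) had 47.2, 31.9 and 30.8 CPM in heated and 2.33, 1.90 and 2.17 CPM in unheated atcyp18-2 leaves, a change of 4.09 ± 0.25 (adjusted p = 7.9e-08). In WT it had 20.6, 23.0 and 14.1 CPM after heat and 2.37, 1.93 and 1.87 CPM without heat, a change of 3.21 ± 0.25 (adjusted p = 8.45e-07). AT3G14200 rose by 2.88 ± 0.21 in atcyp18-2 (65.9 to 76.5 CPM after heat, 7.67 to 12.6 CPM without) and by 2.49 ± 0.21 in WT (43.4 to 65.1 CPM after heat, 9.16 to 11.2 CPM without). AT2G33735 rose by 2.35 ± 0.26 in atcyp18-2 and 2.28 ± 0.26 in WT. AT5G16650, EIP9 (AT5G64360) and AT5G23590 rose by 1.25 to 1.39 in atcyp18-2 and by 1.09 to 1.17 in WT. The call of EIP9 in WT was lost in 7 of the 12 fits that left out 1 library and in 6 of the 10 other settings (adjusted p up to 0.486, with library totals), and that of AT5G23590 was lost without WT heat replicate 3 (0.77, adjusted p = 0.07) and with library totals. In atcyp18-2 the call of EIP9 was lost without atcyp18-2 heat replicate 2 (1.20, adjusted p = 0.0545) and with library totals. AT2G38000, which holds no J-domain entry, rose by 1.01 ± 0.26 in atcyp18-2 and was called in WT at 0.76 ± 0.26 (adjusted p = 0.0496). That WT call was lost in 12 of the 12 fits that left out 1 library and in 9 of the 10 other settings, and the setting that kept it had the sign of the component score as a term. AT3G62190 rose by 0.70 ± 0.18 in atcyp18-2 and was called in WT at 0.54 ± 0.18 (adjusted p = 0.0463), with a direction that flipped with library totals in both genotypes. Its WT call was lost in 10 of the 12 fits that left out 1 library and in 6 of the 10 other settings, DESeq2 among them (0.42, adjusted p = 0.119). DJC24 (AT2G17880), at 1.18 to 2.67 CPM in heated and 0.301 to 0.782 CPM in unheated atcyp18-2 leaves, rose by 1.95 ± 0.44 (adjusted p = 0.00467). In WT it rose by 2.07 ± 0.52 (adjusted p = 0.0121), a call that was lost without WT control replicate 2 (1.88, adjusted p = 0.0543). Its reads were few, 13, 9 and 16 in heated and 3, 6 and 8 in unheated atcyp18-2 leaves, and 6, 7 and 11 in heated against 1, 2 and 4 in unheated WT leaves. With the added read subtracted from every value it did not pass the filter on low counts, so neither call was tested in that setting, and in WT it was not tested with only the groups compared.

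AT5G03030 is annotated as a DnaJ-domain protein but holds no J-domain entry in Pfam. It had 30.9, 23.0 and 28.4 CPM in heated and 3.91, 3.33 and 3.65 CPM in unheated atcyp18-2 leaves, and 41.0, 32.3 and 23.7 CPM in heated against 2.50, 2.53 and 2.93 CPM in unheated WT leaves. The groups did not overlap, and its changes were 2.91 ± 0.22 in atcyp18-2 (adjusted p = 5e-07) and 3.60 ± 0.22 in WT (adjusted p = 1.04e-07). Its upstream window holds 1 pair of repeats and overlaps the gene AT5G03040.

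Of 3 members of the endoplasmic reticulum, 1 was called, and in WT. Over all genes 16.9% rose in atcyp18-2 and 13.2% in WT. The rule leaves out ATERDJ3A, which rose by 6.82 ± 0.36 in atcyp18-2 and 6.38 ± 0.35 in WT. It also leaves out ATERDJ3B, which was called in neither (0.54 ± 0.28 and 0.61 ± 0.27). The 3 members therefore do not cover all J-domain genes of the endoplasmic reticulum. P58IPK, a lumenal co-chaperone, had 2.96, 4.13 and 6.91 CPM in heated and 3.38, 3.26 and 2.26 CPM in unheated atcyp18-2 leaves, which overlap (0.64 ± 0.35, adjusted p = 0.186). In WT it had 9.49, 7.21 and 4.01 CPM after heat and 2.97, 2.53 and 2.76 CPM without heat, and rose by 1.30 ± 0.34 (adjusted p = 0.0149). The call in WT was lost without WT control replicate 2 (1.24, adjusted p = 0.0567) or WT heat replicate 1 (0.99, adjusted p = 0.0788), and the gap between the genotypes in that response was -0.66 ± 0.49 (adjusted p = 0.993). ATERDJ2A (AT1G79940) and ATERDJ2B (AT4G21180), which resemble yeast Sec63 of the translocation channel, changed by -0.05 ± 0.19 and 0.23 ± 0.26 in atcyp18-2 and by -0.32 ± 0.19 and 0.07 ± 0.26 in WT, and neither was called. With library totals ATERDJ2A was called lower in both genotypes.

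Members tied to photosynthetic complexes or plastid structure changed in small steps or were not called. LQY1, a zinc finger protein that takes part in photosystem II repair, had 44.4, 41.5 and 44.0 CPM in heated and 34.1, 40.9 and 36.2 CPM in unheated atcyp18-2 leaves, and 46.5, 41.9 and 39.9 CPM in heated against 32.3, 28.7 and 35.0 CPM in unheated WT leaves. It rose in WT by 0.42 ± 0.13 (adjusted p = 0.0392), a direction that turned to -0.33 with library totals. The call was lost when any of 7 libraries was left out (adjusted p up to 0.15, without WT control replicate 2) and in 5 of the 10 other settings, DESeq2 among them (0.31, adjusted p = 0.107). EDA3 (AT2G34860, also PSA2), a photosystem I assembly factor, and ARC6 (AT5G42480), which organises the chloroplast division ring, changed by -0.13 ± 0.17 and -0.02 ± 0.17 in atcyp18-2 and by 0.07 ± 0.17 and -0.01 ± 0.17 in WT. NdhT (AT4G09350), a subunit of the chloroplast NADH dehydrogenase-like complex, had 1.81, 6.84 and 2.51 CPM in heated and 14.5, 5.36 and 6 CPM in unheated atcyp18-2 leaves, and 5.35, 3.90 and 10 CPM in heated against 11.8, 12.4 and 4.44 CPM in unheated WT leaves. Its negative-score libraries were the highest in every group, and its change missed the threshold in both genotypes (-1.16 ± 0.57 in atcyp18-2 and -0.54 ± 0.53 in WT). It was called lower in atcyp18-2 with the sign of the component score as a term (-1.21, adjusted p = 1.7e-05) and without atcyp18-2 heat replicate 2 (-1.99, adjusted p = 0.0375). With library totals ARC6 was called lower in both genotypes and EDA3 in atcyp18-2. LQY1 was called lower in atcyp18-2 with that scaling too (-0.53, edgeR, adjusted p = 0.0205).

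Other members with a known role or domain did not pass the threshold in either genotype, and 4 of them did in other settings. GRV2 (AT2G26890), an endosomal protein of the gravity response and one of the 4 members with the highest mean CPM, had 81.4, 40.4 and 89.0 CPM in heated and 37.9, 67.9 and 57.5 CPM in unheated atcyp18-2 leaves, and 87.1, 98.6 and 50.8 CPM in heated against 41.9, 42.6 and 72.4 CPM in unheated WT leaves, so that heated and unheated groups overlapped. ARG1 (AT1G68370), of gravitropism, and OWL1 (AT2G35720), of responses to very low light, changed by 0.21 ± 0.25 and 0.34 ± 0.28 in atcyp18-2 and by -0.12 ± 0.25 and -0.18 ± 0.28 in WT. AT3G11450 and AT5G06110, which join a J-domain to a Myb-like DNA-binding domain, stood at -0.84 ± 0.43 and -0.87 ± 0.42 in atcyp18-2 and at -1.16 ± 0.42 and -0.90 ± 0.41 in WT. AT5G06410 stood at 0.53 ± 0.53 in atcyp18-2 and 1.02 ± 0.49 in WT. In the fit with the score sign as a term, GRV2 was higher after heat in atcyp18-2 (0.33, adjusted p = 0.00831) and in WT (0.30, adjusted p = 0.0207), and AT5G06410 in WT (1.21, adjusted p = 0.0168). With the same term AT3G11450 was lower in atcyp18-2 (-0.86, adjusted p = 9.96e-05) and in WT (-0.89, adjusted p = 4.5e-05), as was AT5G06110 (-0.91, adjusted p = 0.000265 in atcyp18-2 and -0.61, adjusted p = 0.00531 in WT). AT3G11450 was called lower in WT by DESeq2 as well (-1.25, adjusted p = 0.036), without WT control replicate 3 (-1.38, adjusted p = 0.0359) and without WT heat replicate 3 (-1.84, adjusted p = 0.00818), and AT5G06110 in atcyp18-2 without atcyp18-2 heat replicate 2 (-1.54, adjusted p = 0.0161). With library totals AT5G06110 was called lower in both genotypes and AT3G11450 in WT.

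The falls were smaller than the leading rises. DJC82 (AT3G05345) had 2.30, 3.30 and 2.67 CPM in heated and 9.40, 5.98 and 6.26 CPM in unheated atcyp18-2 leaves, and 4.01, 3.45 and 6.02 CPM in heated against 8.79, 8.61 and 7.91 CPM in unheated WT leaves. It fell by 1.37 ± 0.27 on the log2 scale in atcyp18-2 (adjusted p = 0.00183) and by 0.88 ± 0.25 in WT (adjusted p = 0.0209). AT5G27240 had 1.64, 3.42 and 2.20 CPM in heated and 6.92, 4.28 and 6.43 CPM in unheated atcyp18-2 leaves, and 2.00, 2.70 and 4.01 CPM in heated against 6.96, 7.65 and 7.11 CPM in unheated WT leaves. It fell by 1.24 ± 0.31 in atcyp18-2 (adjusted p = 0.00865) and by 1.28 ± 0.29 in WT (adjusted p = 0.00739). AT3G06340 fell by 0.89 ± 0.20 in atcyp18-2 and 0.65 ± 0.19 in WT, and AT3G04980 by 1.12 ± 0.38 in atcyp18-2 (0.493 to 1.10 CPM after heat, 1.29 to 1.88 CPM without). AT5G27240, AT3G06340 and AT3G04980 belong to the 13 members with a domain of unknown function (DUF3444, PF11926). Of the 9 of these that were fitted, 3 fell and 1 rose in atcyp18-2 and 2 fell in WT, beside the 15.3% (atcyp18-2) and 10.3% (WT) of all genes that fell and the 16.9% and 13.2% that rose, with median log2 fold changes of -0.41 in atcyp18-2 and -0.35 in WT. AT1G30280 fell by 1.23 ± 0.39 in atcyp18-2 and by 1.24 ± 0.36 in WT. TPR16 (AT5G12430), a J-domain protein with tetratricopeptide repeats, fell by 0.78 ± 0.21 in atcyp18-2 and by 0.70 ± 0.21 in WT. AT4G12770, whose neighbour AT4G12780 is a similar gene that makes its reads uncertain, fell by 0.56 ± 0.18 in atcyp18-2 and by 0.51 ± 0.17 in WT. Its WT call was lost in 11 of the 12 fits that left out 1 library and in 4 of the 10 other settings, and its atcyp18-2 call in 3 of the 12 fits that left out 1 library and in 2 of the 10 other settings.

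AT3G47650, a DnaJ-like zinc finger protein and another of the 4 with the highest mean CPM, fell in atcyp18-2. It had 46.1, 41.4 and 51.2 CPM in heated and 60.4, 75.4 and 67.6 CPM in unheated atcyp18-2 leaves, a change of -0.55 ± 0.15 (adjusted p = 0.0126). In WT it had 68.2, 60.6 and 54.4 CPM after heat and 60.8, 60.4 and 70.0 CPM without heat, which overlap (-0.06 ± 0.15, adjusted p = 0.803). With library totals AT3G47650 was called lower in WT too (-0.82, edgeR, adjusted p = 0.00104), a setting that called 45.1% of all genes lower there. The call in atcyp18-2 was lost without atcyp18-2 control replicate 2 (-0.47, adjusted p = 0.0589) or heat replicate 2 (-0.48, adjusted p = 0.0501), and the difference between genotypes was -0.49 ± 0.21 (adjusted p = 0.902).

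Without WT control replicate 1, WT control replicate 2, WT heat replicate 1 or WT heat replicate 2, 1 of the 6 falls in WT was called, that of AT5G27240. Over all genes these fits called 1196, 1039, 1164 and 1058 falls in WT, beside 1711 with all libraries. In atcyp18-2 the falls of DJC82, AT5G27240 and AT3G06340 were kept with any 1 library left out, and those of the other 5 were lost without at least 1 of them. Of all 29 WT calls 15 were kept when any 1 library was left out, and of the 33 atcyp18-2 calls 25 were kept.

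**Figure D4:**
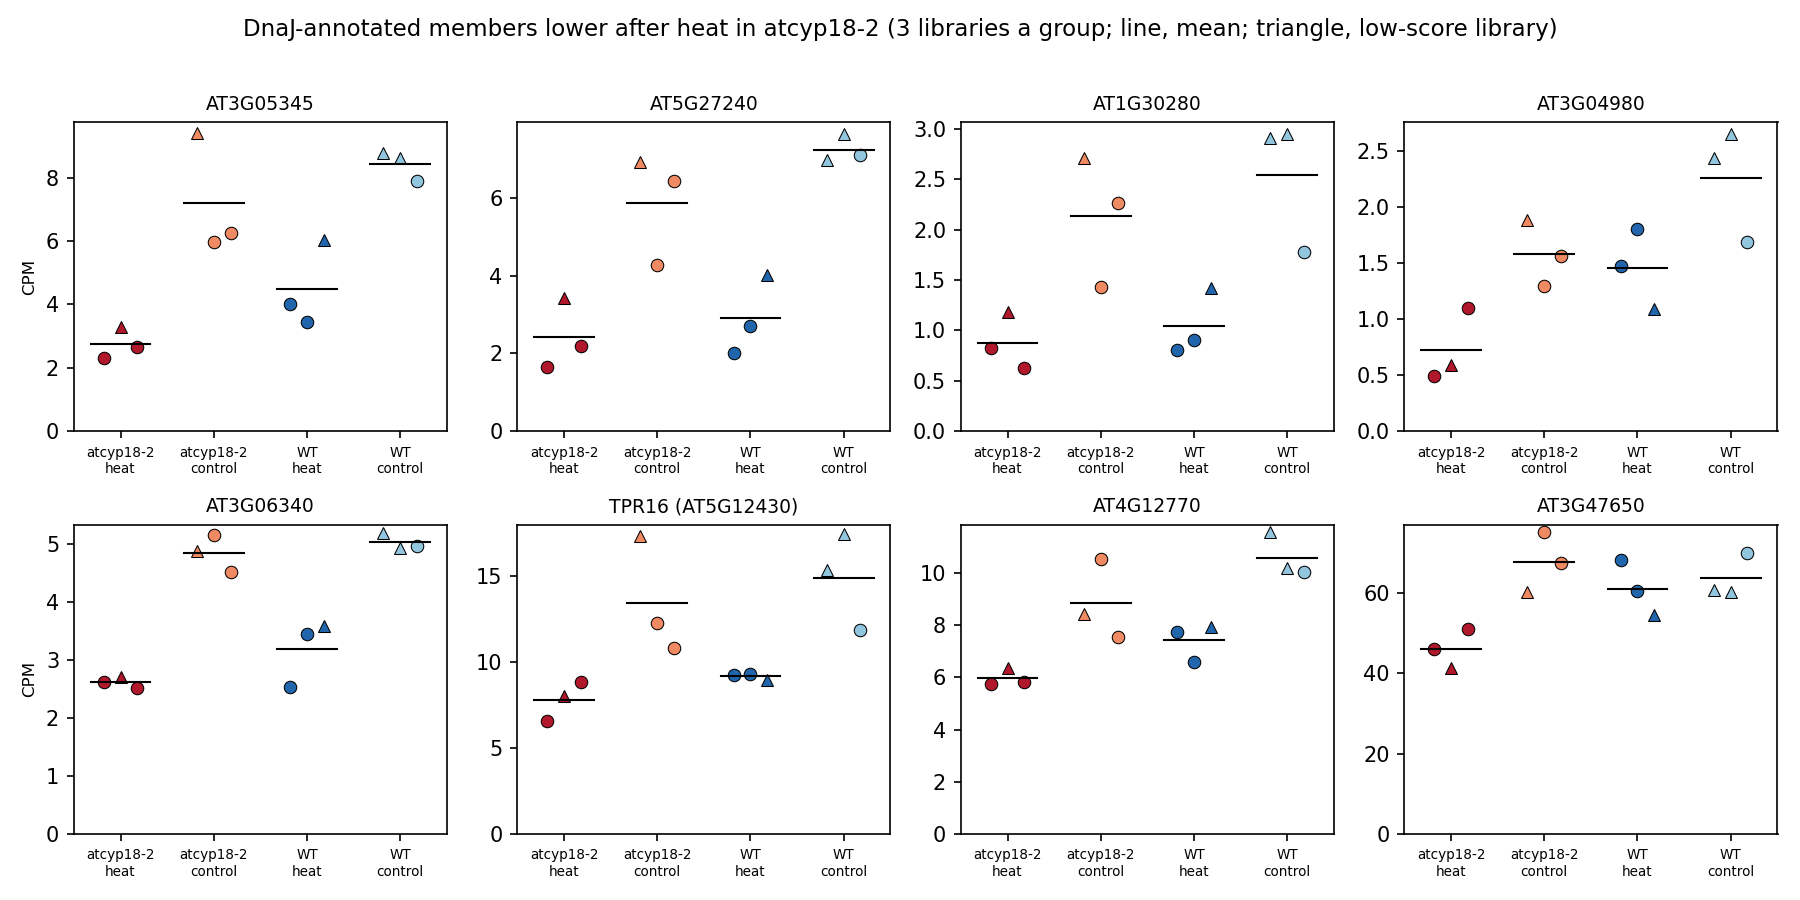
CPM of the 8 members that fell after heat in atcyp18-2, with 1 point for each of the 3 libraries in a group, a line at the mean and triangles for libraries with a negative component score. Heated atcyp18-2 libraries lie below the unheated atcyp18-2 libraries in each of the 8 panels, and AT3G47650 overlaps between heated (54.4 to 68.2 CPM) and unheated WT leaves (60.4 to 70.0 CPM).

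The next question was whether atcyp18-2 leaves differed from WT leaves in these members. Without heat 0 of the 101 fitted members were called higher and 0 lower (edgeR, 0.018% and 0.00601% of all genes). An unadjusted p below 0.05 was found for 1 of the 101, beside 396 of all 16636 genes. DESeq2 called 0 of 115 members (0.0669% of 20926 genes higher and 0.0335% lower). Group ranges lay apart for 3 members higher and 4 lower in atcyp18-2 (3.67% and 3.01% of all genes). The smallest p belonged to J11, at 4.74, 8.42 and 9.38 CPM in unheated atcyp18-2 leaves and 4.46, 3.61 and 3.38 CPM in unheated WT leaves, a log2 fold change of 0.97 ± 0.32 (adjusted p = 1). The next were AT5G03030 (0.45 ± 0.23), DJC24 (1.06 ± 0.55), AT1G74250 (-0.62 ± 0.34) and AT3G04980 (-0.53 ± 0.29), of which none was called. With the sign of the component score as a term, 1 member was called higher, J8 (1.17, adjusted p = 0.0129), and 0 lower (0.264% and 0.144% of all genes).

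After heat 1 member, AT1G72416, was higher and 0 were lower in atcyp18-2 (0.162% and 0.0601% of all genes). It is a J-domain protein with no role given here. It had 127, 132 and 92.3 CPM in heated atcyp18-2 leaves, against 26.1, 31.7 and 29.5 CPM in heated WT leaves. Without heat it had 1.13, 0.815 and 1.82 CPM in atcyp18-2 and 0.811, 0.843 and 0.978 CPM in WT. The heated groups did not overlap, and the mutant was 4.03-fold higher, a log2 fold change of 2.01 ± 0.20 (adjusted p = 0.0021). The authors' deposited table of this comparison, which holds 4 rows, lists it with a log2 fold change of 2.01 and an adjusted p of 0.000688. Heat raised it by 6.56 ± 0.27 in atcyp18-2 (adjusted p = 1.92e-09) and by 5.04 ± 0.26 in WT (adjusted p = 2e-08).

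The difference of AT1G72416 was 2.17 between the negative-score libraries (1 each) and 1.91 between the positive-score libraries (2 each). Leaving out any 1 library kept the call, with log2 fold changes of 1.91 to 2.15. With library totals it missed the threshold (1.92, adjusted p = 0.0529), and over the other alternatives the adjusted p was 1.03e-13 to 0.0415. Of its 5 annotated transcripts, 4 had the same reads, 770, 1123 and 587 in the heated atcyp18-2 libraries and 194, 210 and 352 in the heated WT libraries, so these transcripts were not told apart. The difference of its heat response, 1.52 ± 0.37, was not called (adjusted p = 0.544).

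The other members closest to a difference after heat were DJC66, DJC69 (AT5G18140), J20 and AT1G71000. DJC66 was at 47.2, 31.9 and 30.8 CPM in heated atcyp18-2 and 20.6, 23.0 and 14.1 CPM in heated WT leaves, without overlap, a change of 0.94 ± 0.21 (adjusted p = 0.124). DESeq2 called it (0.89, adjusted p = 0.0145) beside AT1G72416, and 0 members lower, with an adjusted p for 60 members (0.949% of 9694 genes higher and 1.08% lower). DJC69 was at 11, 12.3 and 10.4 CPM in heated atcyp18-2 and 7.48, 7.36 and 8.03 CPM in heated WT leaves, a change of 0.56 ± 0.16 (adjusted p = 0.188). J20 changed by 0.92 ± 0.28 (adjusted p = 0.227) and AT1G71000 by -0.37 ± 0.13 (adjusted p = 0.297). Of all fitted members, 8 were higher in heated atcyp18-2 leaves without overlap (8% of all genes) and 6 lower (6.86% of all genes). With the sign of the component score, made from these same counts, as a term, 7 members were called higher and 4 lower in heated atcyp18-2 leaves (4.32% and 3.08% of all genes). The higher ones were AT1G72416, DJC66, J20, J8, J11, DJC69 and AT3G14200, and the lower ones AT3G47650, AT1G71000, NdhT and DJC82, with log2 fold changes between -0.80 and 2.01.

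**Figure D5:**
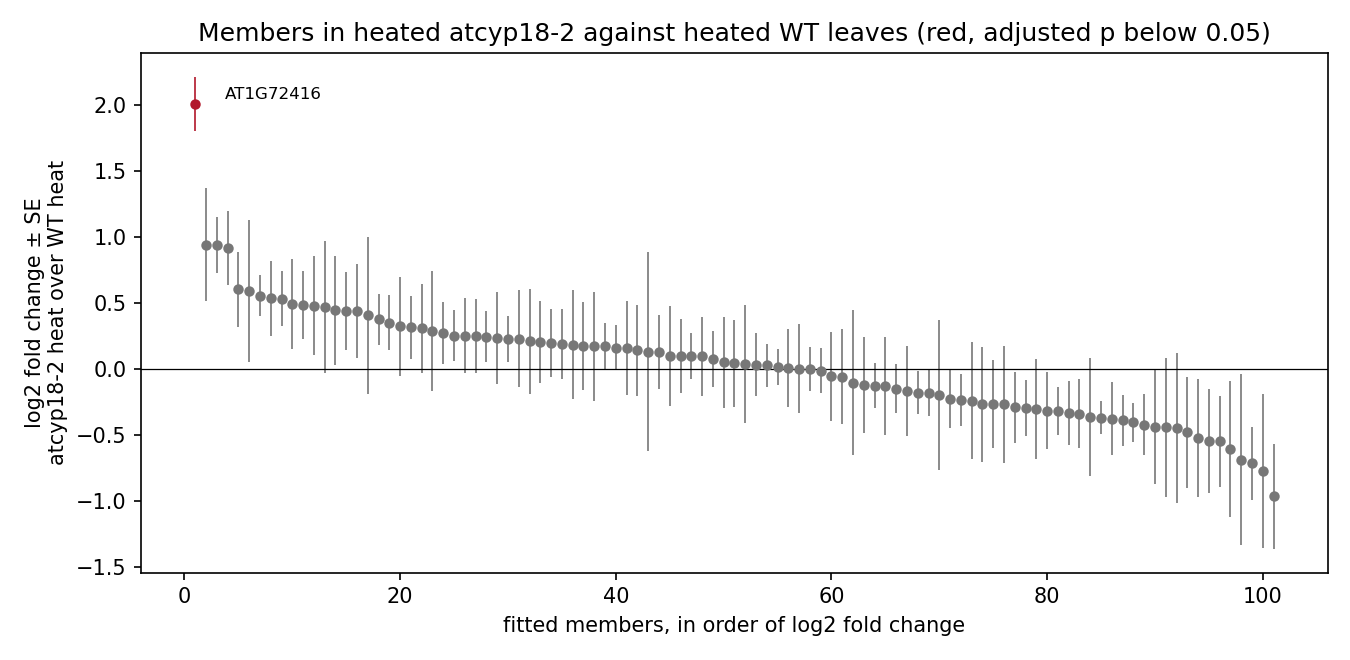
Log2 fold change ± SE of each fitted member in heated atcyp18-2 over heated WT leaves, in order of size, with the called member in red. AT1G72416 stands at 2.01, and every other member lies between -0.96 and 0.94.

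The heat response itself was called different between genotypes for 0 of the 101 members in either direction (edgeR, 0% of all genes). An unadjusted p below 0.05 was found for 6 of the 101 members, beside 911 of all 16636 genes. DESeq2, which gave an adjusted p for 43 members and 7000 genes here, called 0 members (0.0857% of those genes higher and 0.257% lower). With the sign of the component score as a term, 0 were called higher and 1 lower, NdhT (-1.08, adjusted p = 0.038, with 0.451% and 0.625% of all genes). The smallest p-values were those of AT1G72416, DJC69 (0.59 ± 0.22), DJC66 (0.89 ± 0.34), AT3G47650 and AT5G05750 (0.68 ± 0.30). AT5G05750 had 6.74, 8.13 and 6.44 CPM in heated and 3.31, 3.19 and 3.56 CPM in unheated atcyp18-2 leaves, and 4.81, 3.75 and 6.02 CPM in heated against 4.06, 3.37 and 3.73 CPM in unheated WT leaves. It rose in atcyp18-2 by 1.09 ± 0.21 (adjusted p = 0.00169), while the change of 0.41 ± 0.21 in WT missed the threshold (adjusted p = 0.187). With the score sign as a term the WT rise was called (0.48, adjusted p = 0.0499).

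The Hsp70 partners of the J-domain proteins were read from lists chosen with earlier results of these data known. Over all genes fitted, 16.9% rose after heat in atcyp18-2 and 13.2% in WT. Of 17 fitted HSP70 genes, 16 rose after heat in each genotype, with median log2 fold changes of 1.97 in atcyp18-2 and 2.03 in WT. Of 7 nucleotide exchange factors, which release ADP from Hsp70, 4 rose in atcyp18-2 and 3 in WT, among them Fes1A (7.60 ± 0.19 in atcyp18-2 and 7.66 ± 0.19 in WT). Of the 4 J-domain genes left out by the rule, 3 rose in each genotype, among them the cytosolic type A proteins J2 (2.88 ± 0.19 in atcyp18-2 and 2.28 ± 0.19 in WT) and J3 (3.24 ± 0.18 in atcyp18-2 and 2.80 ± 0.18 in WT). ATERDJ3A rose by 6.82 ± 0.36 in atcyp18-2 and 6.38 ± 0.35 in WT. Of the genes in these lists 0 were called between genotypes without heat, after heat or in the difference of the heat responses (edgeR). Few genes were called there at all. Over all genes the calls were 0.018% higher and 0.00601% lower without heat, and 0.162% and 0.0601% after heat. For the difference of the heat responses they were 0%.

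The 18 members outside the fit had 1 to 69 reads each over all 12 libraries, too few for the filter on low counts. AT5G37440, a J-domain member, had 3, 7 and 1 reads in heated and 1, 0 and 2 reads in unheated atcyp18-2 leaves, and 7, 7 and 12 reads in heated against 6, 4 and 1 reads in unheated WT leaves. On the CPM scale, which counts the added read, it stood at 0.314 to 0.943 CPM in heated and 0.0679 to 0.261 CPM in unheated atcyp18-2 leaves, and at 1.07 to 1.20 CPM in heated against 0.178 to 0.473 CPM in unheated WT leaves, without overlap. With no filter it was called higher after heat in atcyp18-2 (1.92, adjusted p = 0.0202) and in WT (1.61, adjusted p = 0.0161), and DESeq2 called it in WT (1.68, adjusted p = 0.0448). Its summed reads in atcyp18-2, 11 against 3, gave a ratio of 6.92 (95% exact binomial interval 1.83 to 38.7). AT5G37750, another J-domain member, had 9 reads in heated against 2 in unheated WT leaves, a ratio of 7.35 (95% exact binomial interval 1.52 to 69.9), and AT4G19570 had 5 reads in heated against 1 in unheated atcyp18-2 leaves, a ratio of 9.44 (95% exact binomial interval 1.06 to 447). These intervals cover counting error only, not the spread between replicates. AT3G06778 had 0, 2 and 1 reads in heated against 11, 12 and 3 reads in unheated atcyp18-2 leaves, and was called lower in atcyp18-2 in 1 setting, without atcyp18-2 control replicate 3 (-1.61, adjusted p = 0.0295). These members were singled out after their values were seen. Of the 18, no setting run called any but AT5G37440 and AT3G06778 after heat.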

How the data were processed

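RNA-seq of 12 leaf samples was analysed in 4 groups read from the sample titles. The authors deposited whole-number counts per transcript under a raw data header, per the file headers, which also name Phytozome as the annotation. The submitters' processing notes name HTSeq and DESeq without versions, and no source used here gives the aligner or build. The lowest count in the table is 1 and stands where no read is found, so printed reads have 1 subtracted, while CPM include it. Of 51792 rows, 1 annotated transcript per gene was kept, the one with the largest sum over the 12 libraries. From the authors' 4 deposited lists of log2 fold changes and adjusted p-values, the values credited to them were taken, and 12 deposited columns of normalized values were not used.

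All 12 libraries entered 1 fit in edgeR 4.0.16 (R 4.3.3), with TMM, filterByExpr, the quasi-likelihood test and Benjamini-Hochberg adjustment over 16636 genes (8 residual degrees of freedom, common biological coefficient of variation 0.231). The SE is the size of the log2 fold change over the root of F. The procedure was tested on simulated data. Alternatives were DESeq2 1.42.0, other scalings and filters, and leaving out each library. The labels do not state separate plants for the replicates, so p-values measure the spread between these samples and that spread may be technical. Replicates of a group differed by more than sampling noise (chi-square per degree of freedom at least 2.69). Strand-aware counting is not stated, so overlapping genes cannot be told apart. Member classes had been planned from protein sequences, which are not used here, and the deposited Pfam entries took their place. Symbols and upstream windows came from RefSeq TAIR10.1, in which all 119 members matched.

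Members and lists were chosen with earlier results of these data known. Named were, in each genotype, up to 12 rises and 8 falls after heat, the largest among called members whose groups did not overlap, and the 4 members with the highest mean CPM. Between genotypes every called member or the 5 with the smallest p were named, and members with a documented role were added. Other members in the text were chosen after their values were seen.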

Additional observations from a re-analysis of the deposited data

How the results depend on the processing

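With library totals in place of TMM, 13 members rose and 32 fell after heat in WT, 12 rose and 32 fell in atcyp18-2, and 0 were called higher in heated atcyp18-2 over heated WT leaves. This scaling turned the log2 fold change of LQY1 (AT1G75690) to -0.53 in atcyp18-2 and -0.33 in WT, that of AT2G24860 to -0.20 in WT, and that of AT3G62190 to -0.075 in atcyp18-2 and -0.24 in WT. With the replicate block, 25 members rose and 5 fell in atcyp18-2, beside 2398 and 2104 of 16636 genes. In WT 18 members rose and 2 fell, beside 1818 and 1226 genes. The labels state no pairing of the replicate numbers. Deviations of same-numbered libraries correlated at -0.644 to 0.382. These values cannot decide on pairing, since deviations were taken within groups of 3 and the scored component held 53.4% of their spread. With the sign of the component score as a term, 17 members fell in atcyp18-2 and 11 in WT. Between genotypes this term gave 1 member higher without heat, 7 higher and 4 lower after heat, and 1 lower in the difference of the heat responses, and DESeq2 gave 2 higher after heat.

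All genes called after heat came to 8419 in atcyp18-2 and 8299 in WT with library totals, and to 8526 and 7005 with the score term. Between genotypes without heat the count of 4 in the reported fit was 0 with library totals, 7 with nuclear genes only, 21 with DESeq2, 1 with only the groups compared, 1 with the replicate block and 68 with the score term. After heat the count of 37 became 6 with library totals, 24 with no filter on low counts, 197 with DESeq2, 1 with only the groups compared, 3 with the replicate block and 1232 with the score term. The count for the heat responses was 0 as reported, 24 with DESeq2 and 179 with the score term.

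Leaving out 1 library gave 23 to 27 rises and 5 to 8 falls of members in atcyp18-2, and 16 to 22 rises and 1 to 7 falls in WT. Over all 16849 to 17094 genes fitted, 2269 to 2950 then rose and 1937 to 2808 fell in atcyp18-2. In WT 1606 to 2304 rose and 1039 to 1810 fell. Leaving out 1 library left 2 to 39 genes called between genotypes after heat and 0 to 10 without heat. Calls were kept in every setting run for 14 of 33 members in atcyp18-2 and 13 of 29 in WT. The cause of these changes was not tested. With 3 samples a group, a missed threshold does not show that values were equal.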
